A study of Mus musculus with 6 samples.

Results

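The cytochrome P450 genes of family 2 were followed in mouse liver with and without overexpression of TFEB. Members were the genes whose only annotated symbol on a probe set begins with Cyp2, a subfamily letter and a number. The rule found 31 of the 12393 genes with 1 symbol on the array, and 30 of the 47 protein-coding Cyp2 genes of the RefSeq table of GRCm38.p6. The remaining member, Cyp2d13, is listed there as a transcribed pseudogene. By subfamily there were 11 Cyp2c, 7 Cyp2d, 4 Cyp2b and 4 Cyp2j genes, and Cyp2a, Cyp2e, Cyp2f, Cyp2g and Cyp2s gave 1 gene each. Subfamily a was measured by Cyp2a12 alone.

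The injected group held 3 wild-type C57 mice, 1 month old, that received an adenoviral vector so that the liver would overexpress TFEB, a transcription factor that activates lysosomal and autophagy genes. The control group held 3 wild-type C57 mice of the same age that were not injected, and each liver was read on 1 Affymetrix array. No group with an empty vector is among the samples used here, so injection, vector and TFEB cannot be told apart. The promoter of the vector, its dose, the time after injection, the feeding state and the sex of the mice are not given in the sources used here. The only Tfeb probe set read 7.50, 7.59 and 7.47 without injection and 7.48, 7.78 and 7.46 with it, a difference of 0.05 (two-sided exact permutation p = 0.9, smallest possible 0.1). Whether these probes can read the transgene is not given either, so this value does not check the labels.

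Family 2 is the largest P450 family of the mouse. Its enzymes sit in the endoplasmic reticulum, take electrons from P450 oxidoreductase and cytochrome b5, and insert oxygen into drugs, steroids, bile acids and fatty acids. In liver, most are made by hepatocytes, many of them near the central vein, and several are switched on by the xenobiotic receptors CAR (Nr1i3) and PXR (Nr1i2). The sex-specific pattern of growth hormone sets the level of some members, and several are neighbours in tandem clusters whose members resemble each other in sequence. Probes may therefore read a close relative as well. Of the 31 members, 5 were read by probe sets whose suffix marks probes shared between transcripts or genes (Cyp2b10, Cyp2c23, Cyp2c65, Cyp2d9 and Cyp2f2).

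Cyp2j6 was chosen for printing because it changed by more than 1 on the log2 scale and its window holds a motif match. Its neighbours Cyp2j9 and Cyp2j5 were added after their values were seen, since the former rose and the latter fell. The window of Cyp2s1, which also rose by more than 1, holds no match and is not printed. The table's bases after the start were not used. In the RefSeq table, 7 protein-coding Cyp2j genes follow each other with no other protein-coding gene between them, in the order Cyp2j13, Cyp2j12, Cyp2j11, Cyp2j8, Cyp2j6, Cyp2j9 and Cyp2j5. The 250 bases before each start, from RefSeq on GRCm38.p6 and written 5′ to 3′ on the strand of the gene, lie at chr4:96553652-96553901 (minus strand) for Cyp2j6, chr4:96591486-96591735 (minus strand) for Cyp2j9 and chr4:96664120-96664369 (minus strand) for Cyp2j5. Capitals mark CACGTG, the core of the E-box that TFEB binds, and AGGTCA or its reverse complement TGACCT, the half-site of many nuclear receptors.
Cyp2j6: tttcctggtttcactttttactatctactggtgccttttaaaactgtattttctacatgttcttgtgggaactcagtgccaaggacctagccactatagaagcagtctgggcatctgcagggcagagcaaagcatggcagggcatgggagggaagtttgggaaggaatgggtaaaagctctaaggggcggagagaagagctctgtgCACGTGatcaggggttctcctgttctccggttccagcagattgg
Cyp2j9: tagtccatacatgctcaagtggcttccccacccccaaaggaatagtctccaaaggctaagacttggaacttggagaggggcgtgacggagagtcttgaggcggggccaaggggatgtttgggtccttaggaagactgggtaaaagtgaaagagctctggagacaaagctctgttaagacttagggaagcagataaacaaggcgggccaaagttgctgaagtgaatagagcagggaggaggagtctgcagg
Cyp2j5: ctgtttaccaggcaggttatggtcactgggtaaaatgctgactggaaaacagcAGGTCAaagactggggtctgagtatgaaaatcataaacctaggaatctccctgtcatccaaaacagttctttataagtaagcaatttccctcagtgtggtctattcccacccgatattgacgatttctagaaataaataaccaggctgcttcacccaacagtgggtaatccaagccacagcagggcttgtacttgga

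The Cyp2j6 window holds CACGTG from 44 to 39 bases before the start, and the Cyp2j5 window holds AGGTCA from 197 to 192 bases before it. No match of either motif stands in the Cyp2j9 window. Of the 31 members, 24 had a promoter in the table, with 26 starts in all. CACGTG, which reads the same on both strands, stood in 1 of these 26 windows, that of Cyp2j6, and in 6.02% of the 32851 promoter windows of the table. AGGTCA, searched on both strands, stood in 8 of 26 windows and in 14.0% of all promoter windows. Those 8 windows belong to Cyp2c29, Cyp2c70, Cyp2f2 and Cyp2j5, which were lower in injected livers, to Cyp2b9, Cyp2b13 and Cyp2b19, and to 1 of the starts of Cyp2c39, and the last 4 genes did not pass the test. A match describes letters in the window and is not a measured binding site.

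Injected livers had lower values of Cyp2a12, Cyp2f2, Cyp2j5 and several Cyp2c and Cyp2d genes, and higher values of Cyp2j6, Cyp2j9 and Cyp2s1. Of 31 members 14 fell, 3 rose and 14 did not pass limma at an adjusted p under 0.05, where 28.1% of all genes were called, 13.9% lower and 14.2% higher. The shares among the members were 45.2% lower and 9.68% higher. The 3 that rose were Cyp2j6, Cyp2j9 and Cyp2s1. Those that fell were Cyp2a12, 5 Cyp2c genes, 6 Cyp2d genes, Cyp2f2 and Cyp2j5. The median difference of the members was -0.42 on the log2 scale, injected minus not injected, and that of all genes was -0.05. In 22 members the arrays of the groups did not overlap, with the injected arrays lower in 18 and higher in 4. Of all genes 46.2% were apart in this way, 26.1% with the injected arrays below and 20.1% with them above. Called differences of 1 or more on the log2 scale were found in 4 members, with Cyp2j6 and Cyp2s1 higher and Cyp2c23 and Cyp2d13 lower, against 2.82% of all genes higher and 1.01% lower. The count of members called lower was 9 without not-injected replicate 3.

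Control transcripts also read lower in injected livers. Poly-A spike-ins, bacterial RNAs added before labelling, had a median difference of -0.44 over 24 probe sets, and hybridisation spike-ins had -0.32 over 18 probe sets. Of the 14 members that fell, 12 lay below the poly-A median. These members were picked by their fall on the same arrays, and the share of all genes below that median is not given here. The count therefore does not separate their falls from that of the spike-ins. The part of labelling or hybridisation in these falls was not tested. Of 8 measured hepatocyte markers 2 rose (Cyp3a11 and Apob) and 0 fell, with a median difference of 0.01. Their mean log2 level was 14.45 to 14.47 without injection and 14.45 to 14.51 with it. This is near the top of the array range, where the highest value was 15.20, and saturation of these probes was not tested. Cyp3a11 (0.27) lost its call without not-injected replicate 2 (0.25) or injected replicate 1 (0.26) or 3 (0.26). Apob (0.29) lost it without not-injected replicate 1 (0.27) or 3 (0.27) or injected replicate 1 (0.25) or 3 (0.28). In liver tissue, fewer cells of a type and less RNA per cell cannot be told apart. Over all probe sets, pairs of not-injected arrays correlated at 0.997 to 0.998, pairs of injected arrays at 0.992 to 0.997 and pairs between groups at 0.975 to 0.988.

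**Figure D1:**
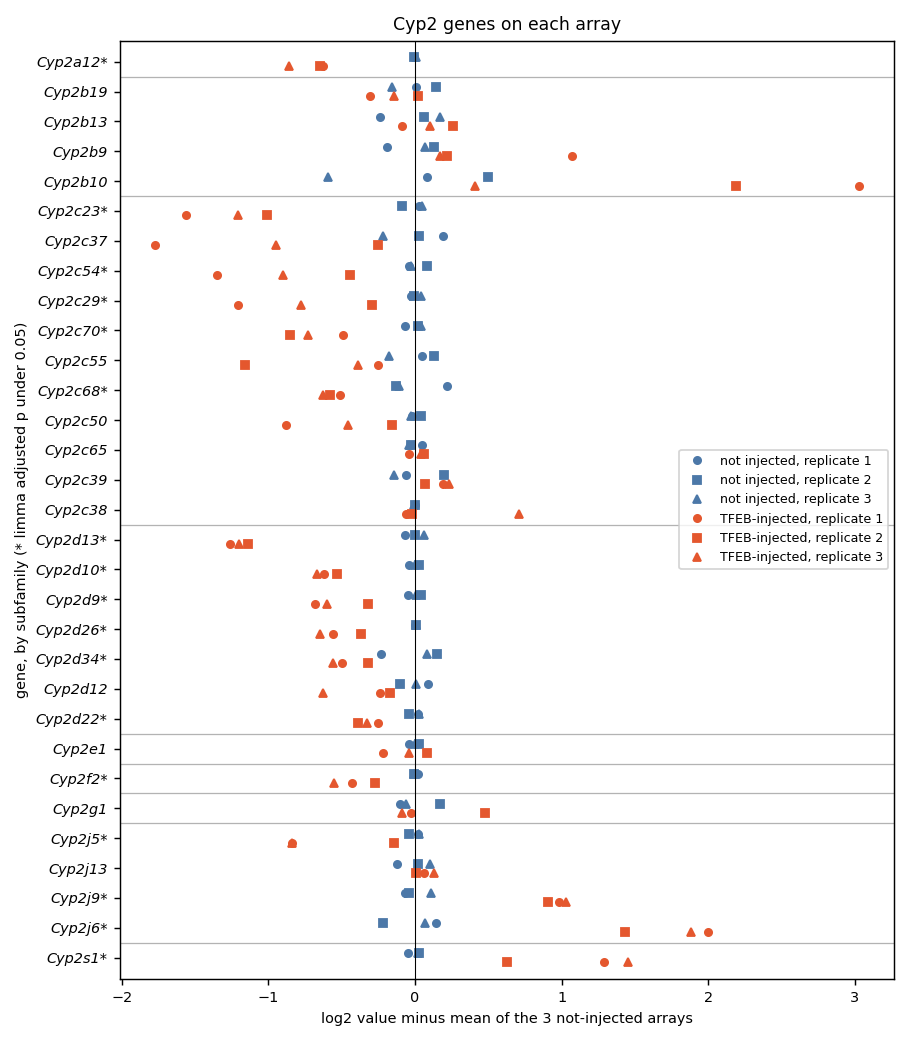
Log2 value of each Cyp2 gene on each array, minus the mean of its 3 not-injected arrays, with genes in rows by subfamily and an asterisk for an adjusted p under 0.05. Most Cyp2c and Cyp2d rows have the injected arrays left of 0, and Cyp2j6, Cyp2j9 and Cyp2s1 have them right of it.

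Of the 14 falls, 13 were in members whose probe sets read at or above the median gene. Signal depends on the probes, so these levels sort probe sets and do not rank transcripts. Of the 12 members with a mean log2 value of 12 or more, a level chosen after the values were seen, 10 fell and 0 rose, where 47.6% of the 553 genes at that level were called, 25.3% lower and 22.2% higher. The 2 members at that level that did not pass were Cyp2c50 and Cyp2e1. Of the 21 members at or above the median gene, 13 fell and 2 rose, against 40.2% called, 18.8% lower and 21.4% higher, among the 6197 genes there. Of the 10 members under the median gene, 1 fell (Cyp2d34) and 1 rose (Cyp2s1), near the background there, where 16.0% of the genes were called, 8.99% lower and 7.04% higher. Cyp2b9, Cyp2b19, Cyp2c65 and Cyp2j13 had means under the lower quartile of the arrays in both groups, a range in which RMA compresses differences. Cyp2d34 had its mean under that quartile in injected livers only.

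**Figure D2:**
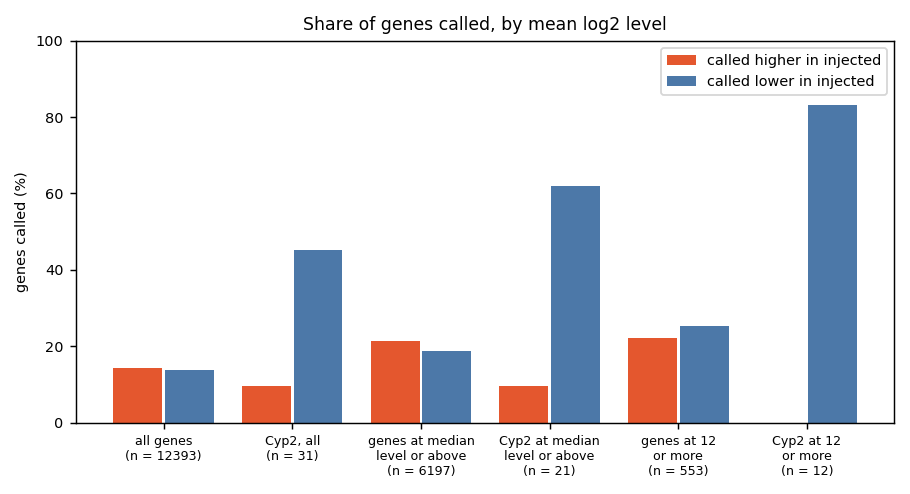
Percent of genes called higher (orange) and lower (blue) in injected livers for all genes and for Cyp2 genes, over all levels, at or above the median gene, and at a mean log2 value of 12 or more. Among Cyp2 genes at 12 or more, 83.3% were called lower, against 25.3% of all genes there.

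In subfamily d nearly all measured genes fell. Its enzymes are relatives of human CYP2D6, which oxidises many drugs. Of 7 members 6 fell, with a median difference of -0.53, and the groups were apart in all 7. Cyp2d13 read 9.77, 9.84 and 9.90 without injection and 8.58, 8.70 and 8.64 with it. The groups were well apart, and the fall was 2.30-fold (-1.20 ± 0.07 on the log2 scale, SE; limma adjusted p = 8.02e-05). Its other probe set read -1.61 ± 0.12. Because Cyp2d13 is a pseudogene among close relatives, its probes may read other Cyp2d transcripts.

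The other Cyp2d falls were smaller. Cyp2d10 read 13.51, 13.58 and 13.55 without injection and 12.93, 13.02 and 12.88 with it, a fall of 0.60 ± 0.06. Cyp2d9, the testosterone hydroxylase of male mouse liver, read 13.99, 14.08 and 14.05 against 13.36, 13.72 and 13.44. Both genes thus had all injected arrays below all others, and the difference of Cyp2d9 was -0.53 ± 0.10 (limma adjusted p = 0.00823). Cyp2d26 differed by -0.53 ± 0.08, Cyp2d34 by -0.46 ± 0.12 and Cyp2d22 by -0.32 ± 0.07. The injected mean of Cyp2d34 (5.27) lay under the lower quartile of every array. The second probe set of Cyp2d22 read -0.47 ± 0.07. Cyp2d22 lost its call without not-injected replicate 3 (-0.31, limma adjusted p = 0.0506). Cyp2d34 lost it without not-injected replicate 2 (-0.38) or 3 (-0.42) and without injected replicate 1 (-0.44) or 3 (-0.41), with limma adjusted p-values of 0.0766 to 0.0865. Cyp2d12 read -0.35 ± 0.13 and did not pass (limma adjusted p = 0.077), but passed without injected replicate 2 (-0.43, adjusted p = 0.0305). More genes were called in all without that array.

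Subfamily c was divided between members that fell and members without a call. Cyp2c enzymes hydroxylate drugs and steroids, and several are epoxygenases of arachidonic acid. Of 11 members 5 fell, 0 rose and 6 did not pass, with a median difference of -0.60 and values from -1.26 to 0.22. Cyp2c23, known as an arachidonic acid epoxygenase, read 12.52, 12.40 and 12.54 without injection and 10.93, 11.48 and 11.28 with it. All injected arrays were lower, and the fall of 2.39-fold was the largest by the probe sets chosen for the genes (-1.26 ± 0.14, limma adjusted p = 0.000896). Cyp2c70, which makes the muricholic acids that set mouse bile apart from human bile, read 13.61, 13.70 and 13.72 against 13.19, 12.83 and 12.95. Its groups did not overlap, and it fell by 0.68 ± 0.10. Cyp2c68 fell by 0.57 ± 0.10.

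In another 4 Cyp2c genes the size of the difference varied between injected livers. Cyp2c29, an abundant P450 of the pericentral lobule, read 13.91, 13.93 and 13.98 without injection and 12.73, 13.65 and 13.16 with it. Cyp2c54 read 12.78, 12.90 and 12.79 against 11.47, 12.38 and 11.92. Cyp2c37, a hydroxylase of arachidonic acid, read 12.54, 12.38 and 12.13 against 10.58, 12.10 and 11.40. In each of these genes, and in Cyp2c50 with 14.01, 14.07 and 14.00 against 13.15, 13.87 and 13.57, injected replicate 1 was farthest from the not-injected mean and injected replicate 2 nearest to it. Over all genes called lower, injected replicate 2 was the nearest in 59.7% and injected replicate 1 the farthest in 42.8%. The differences were -0.76 ± 0.20 for Cyp2c29, -0.90 ± 0.20 for Cyp2c54, -0.99 ± 0.34 for Cyp2c37 and -0.50 ± 0.16 for Cyp2c50.

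By limma Cyp2c29 (adjusted p = 0.0294) and Cyp2c54 (0.0158) passed, while Cyp2c37 (0.064) and Cyp2c50 (0.0591) did not. Without injected replicate 2 the values were -1.36 for Cyp2c37 (adjusted p = 0.00373) and -0.67 for Cyp2c50 (0.00508), and both passed. In that fit 4378 of all genes were called, against 3486 with all arrays. Cyp2c29 lost its call without not-injected replicate 1 (-0.78), 2 (-0.77) or 3 (-0.74) and without injected replicate 3 (-0.75), with adjusted p-values of 0.0713 to 0.0897. Cyp2c54 lost it without not-injected replicate 2 (-0.86, adjusted p = 0.0615) or 3 (-0.92, adjusted p = 0.0504). The remaining 4 members did not pass. Cyp2c55, a P450 of the colon that CAR and PXR can induce, read -0.60 ± 0.22, and its 95% interval ran from -1.12 to -0.07. Cyp2c38 differed by 0.22 ± 0.19, with 9.94 on injected replicate 3 against 9.17 to 9.23 on all other arrays. Cyp2c39, which hydroxylates retinoic acid, read 0.17 ± 0.10, and the gut-expressed Cyp2c65 read 0.02 ± 0.06.

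**Figure D3:**
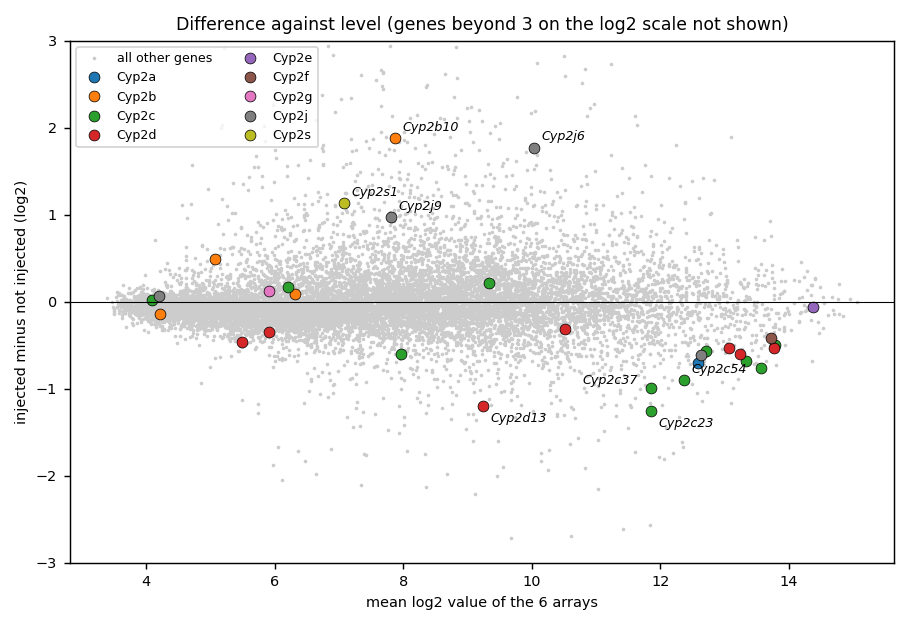
Difference between injected and not-injected livers (log2) against the mean log2 value of the 6 arrays, with Cyp2 genes coloured by subfamily over all other genes in grey. The members read at 12 or more lie below 0, and Cyp2b10, Cyp2j6, Cyp2j9 and Cyp2s1 lie highest.

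Subfamily j moved in both directions: of 4 members 2 rose, 1 fell and 1 did not pass. Its enzymes are best known for making epoxides of arachidonic acid. Cyp2j6 read 9.29, 8.93 and 9.22 without injection and 11.15, 10.58 and 11.03 with it. All injected arrays lay above all others, and the rise was 3.41-fold (1.77 ± 0.16, limma adjusted p = 0.000439). Its neighbour Cyp2j9 read 7.26, 7.29 and 7.44 against 8.31, 8.24 and 8.36, a rise of 1.96-fold (0.97 ± 0.07, limma adjusted p = 0.000234). The groups did not overlap, and the SD was 0.10 without injection and 0.06 with it. With each array left out in turn the rise of Cyp2j6 was 1.66 to 1.94 and that of Cyp2j9 0.93 to 1.02, and both passed every time.

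Cyp2j5, an epoxygenase of liver and kidney that lies beside Cyp2j9, read 12.96, 12.90 and 12.97 without injection and 12.10, 12.80 and 12.10 with it. Injected replicate 2 was close to the not-injected arrays and the other injected arrays were lower. The fall of 0.61 ± 0.18 passed narrowly (limma adjusted p = 0.0429). It did not pass without not-injected replicate 1 (-0.60), 2 (-0.63) or 3 (-0.59) or without injected replicate 1 (-0.49) or 3 (-0.49), with adjusted p-values of 0.100 to 0.131. The second probe set of Cyp2j5 read 11.23, 10.84 and 11.09 against 9.62, 10.52 and 9.43, again with injected replicate 2 the nearest, and its difference was -1.20 ± 0.26. Cyp2j13 read 4.05 to 4.30 on all arrays and did not pass (0.07 ± 0.08).

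**Figure D4:**
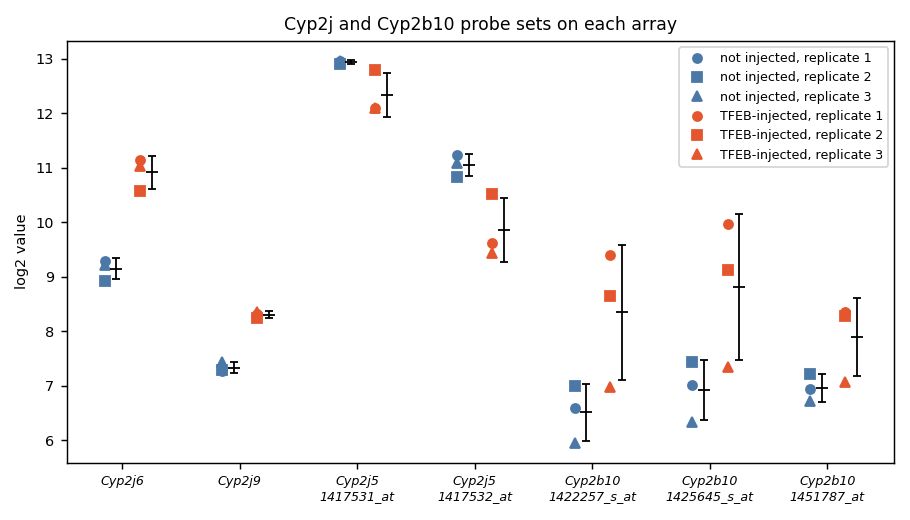
Log2 values of the probe sets of Cyp2j6, Cyp2j9, Cyp2j5 and Cyp2b10 on each array, with the mean and SD of 3 arrays beside each group. Cyp2j6 and Cyp2j9 are separated between groups, while injected replicate 3 lies with the not-injected arrays in all 3 probe sets of Cyp2b10.

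Subfamily b had no call. Cyp2b10 is the standard reporter gene of CAR activation by phenobarbital-like drugs. It read 7.01, 7.43 and 6.34 without injection and 9.96, 9.12 and 7.34 with it. Injected replicates 1 and 2 were above all not-injected arrays, while injected replicate 3 lay within their range. The difference of 1.88 ± 0.61 was the largest of the family in either direction and did not pass (3.68-fold, limma adjusted p = 0.057, 95% interval from 0.45 to 3.31). Without injected replicate 3 it was 2.61 and passed (limma adjusted p = 0.00594). The other probe sets of Cyp2b10 differed by 1.84 ± 0.57 and 0.93 ± 0.33, also with injected replicate 3 the lowest injected array. Over all probe sets tested singly, the former passed (limma adjusted p = 0.0488) and the latter did not (0.0718).

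Cyp2b9, a member higher in female than in male mouse liver, read 4.64, 4.96 and 4.90 without injection, and 5.90, 5.05 and 5.0 with it. Its groups did not overlap, and injected replicate 1 stood apart. Its difference of 0.49 ± 0.23 did not pass, nor did those of the female-biased Cyp2b13 (0.09 ± 0.13) and of Cyp2b19, a P450 of skin keratinocytes (-0.14 ± 0.11). In the RefSeq order Cyp2s1, Cyp2b10, Cyp2b13 and Cyp2b9 follow each other on chromosome 7, and of these Cyp2s1 passed.

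The subfamilies with 1 measured gene differed in direction. Cyp2a12, which hydroxylates steroids and bile acids, read 12.93, 12.93 and 12.95 without injection and 12.31, 12.29 and 12.08 with it. The groups were clearly apart, and it fell by 0.71 ± 0.08 (1.64-fold, limma adjusted p = 0.00095). A further probe set carried 2 symbols, both of subfamily a, and was not counted or tested with the genes. It read 11.23, 10.99 and 11.15 against 11.70, 11.85 and 12.31, so all injected arrays were above all others, opposite to Cyp2a12 (difference 0.83, two-sided exact permutation p = 0.1, the smallest that 3 against 3 arrays allow).

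Cyp2f2, which activates naphthalene in airway cells and in liver marks the periportal zone, read 13.95, 13.92 and 13.92 against 13.50, 13.66 and 13.38. It fell by 0.42 ± 0.08 (limma adjusted p = 0.00947), with no overlap between groups. Cyp2e1, the pericentral enzyme that oxidises ethanol and acetaminophen, read 14.37, 14.44 and 14.41 against 14.19, 14.49 and 14.37. Its groups overlapped and the difference of -0.06 ± 0.09 had a 95% interval from -0.26 to 0.15. Its probe set read near the level of the hepatocyte markers, and its saturation was likewise not tested. Cyp2g1, an olfactory P450, read 5.76, 6.03 and 5.80 against 5.83, 6.34 and 5.77, again with overlap (0.12 ± 0.16). Cyp2s1, found mainly in epithelia outside the liver, read 6.47, 6.55 and 6.54 against 7.81, 7.15 and 7.97. All injected arrays were higher, and the rise was 2.18-fold (1.13 ± 0.19, limma adjusted p = 0.00567).

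The receptors that switch on Cyp2 genes were partly lower. Of 8 xenobiotic receptors and partners 4 fell and 0 rose, with a median difference of -0.25. Of all genes 28.1% were called, and 13.9% were called lower. At or above the median gene these shares were 40.2% and 18.8%. Nr1i3, which encodes CAR, read 8.80, 9.02 and 8.95 without injection and 7.36, 8.24 and 7.95 with it, a fall of 1.07 ± 0.20 (limma adjusted p = 0.00832). Injected replicate 1 was the lowest and injected replicate 2 the highest of the injected arrays. This order was common: replicate 1 was the farthest from the not-injected mean and replicate 2 the nearest in 30.4% of all genes called lower. The CAR reporter gene Cyp2b10 was highest on injected replicate 1. The dioxin receptor Ahr fell by 0.48 ± 0.07 and the receptor partner Rxra by 0.32 ± 0.07, while Nr1i2, which encodes PXR, differed by -0.03 ± 0.12. Of 13 other targets of CAR and PXR 3 rose and 3 fell, with a median of 0.17. Among them the carboxylesterase Ces2a fell by 1.91 ± 0.18, the aldehyde dehydrogenase Aldh1a1 fell by 0.69 ± 0.11 and the glutathione transferase Gsta2 rose by 1.03 ± 0.18. Cyp3a11, counted above as a hepatocyte marker, is also in this list and rose by 0.27 ± 0.06.

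The lists here and below are read against the 28.1% of all genes, and 40.2% of those at or above the median gene, that were called. For genes that supply electrons and heme to P450 enzymes the counts are not far from these shares. Of 4 measured genes of the electron donor list 1 fell, the outer mitochondrial cytochrome b5 gene Cyb5b (-0.62 ± 0.15), and 0 rose. Por, the gene of P450 oxidoreductase, had no probe set with its symbol alone and was not measured. Cyb5b lost its call without not-injected replicate 1 (-0.63), 2 (-0.63) or 3 (-0.62) or injected replicate 3 (-0.64). Cyb5a, the microsomal cytochrome b5, read -0.08 ± 0.08. Of 9 genes of heme synthesis and breakdown 3 fell and 1 rose. Coproporphyrinogen oxidase, encoded by Cpox, fell by 1.17 ± 0.11 and biliverdin reductase B, encoded by Blvrb, by 0.61 ± 0.08, while heme oxygenase, encoded by Hmox1, rose by 1.34 ± 0.14. Of 10 liver transcription factors and coactivators 3 rose and 3 fell, and the coactivator gene Ppargc1a rose 4.71-fold (2.24 ± 0.15), while the nuclear factor I gene Nfib fell by 0.52 ± 0.08. Of 9 genes of growth hormone signalling and clock output 3 rose and 3 fell. Dbp, a clock output factor that acts on several P450 genes, rose 4.67-fold (2.22 ± 0.35), while its counterpart Nfil3 fell by 1.61 ± 0.13. Dbp did not pass without variance moderation. In the same list Tef rose (0.48 ± 0.14) and Hlf fell (-0.36 ± 0.10). The times of day of the harvests are not given in the sources used here.

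**Figure D5:**
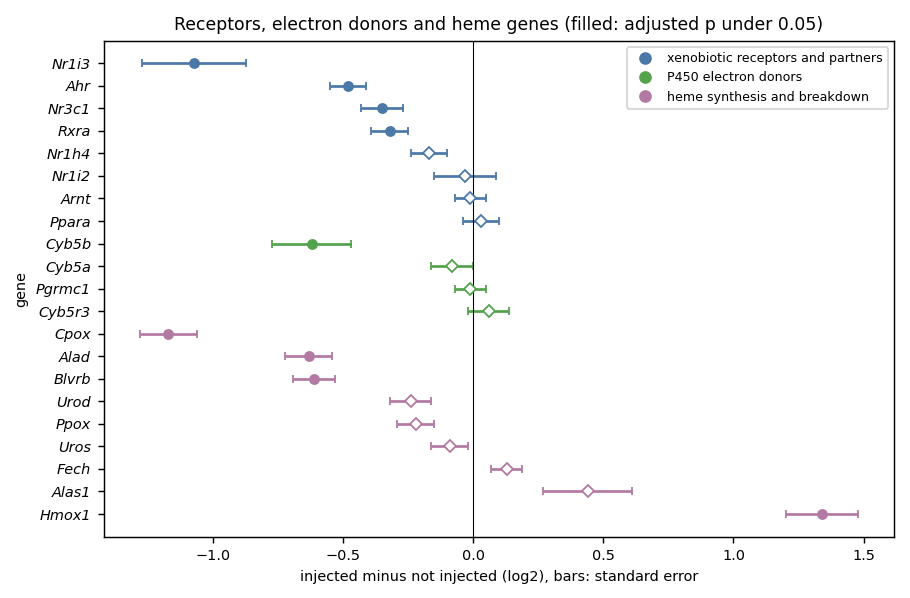
Difference between injected and not-injected livers (log2, with SE) for receptors, electron donors and heme genes, filled where the adjusted p was under 0.05. Nr1i3 lies at -1.07, Cpox at -1.17 and Hmox1 at 1.34.

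Among the other lists, the male-biased genes had the largest median difference, and several lists had counts near the shares of all genes. Of 10 male-biased liver genes outside family 2, 8 fell and 0 rose, with a median difference of -2.20. The adipokine gene Serpina12 fell by 3.88 ± 0.41 and the fatty acid elongase gene Elovl3 fell by 3.40 ± 0.49. Of 8 female-biased genes 2 rose and 0 fell, with a median of 0.22. They were the flavin monooxygenase gene Fmo2 (1.95 ± 0.26) and Cyp3a44 (0.32 ± 0.06). Within family 2, the male-specific Cyp2d9 fell by 0.53, and the female-biased Cyp2b9 and Cyp2b13 did not pass. Of 4 sex chromosome genes 1 rose, the Y-linked Uty (0.31 ± 0.07), which lost its call without not-injected replicate 2 (0.28) or 3 (0.31) or injected replicate 1 (0.26). Xist read 6.16 to 6.40 and Eif2s3y 10.39 to 10.70 on all arrays. Of 11 pericentral markers outside family 2, 3 fell and 1 rose, with a median of -0.01, and of 9 periportal markers 4 fell and 2 rose, with a median of -0.22. G6pc, the last enzyme of glucose production, fell by 1.74 ± 0.13 and Pck1 fell by 1.14 ± 0.14, while the aldehyde dehydrogenase gene Aldh1b1 rose by 1.45 ± 0.18. Of 14 acute phase reactants 4 rose and 3 fell, with a median of -0.12.

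Several endothelial markers were higher, and most macrophage markers did not pass, with a count of calls near the background shares. Of 10 markers of sinusoidal endothelium 5 rose and 0 fell, among them the hyaluronan receptor gene Lyve1 (2.10 ± 0.15), with a mean log2 level of 8.20 to 8.29 without injection and 8.65 to 8.82 with it. Of 11 markers of Kupffer cells and macrophages 3 rose and 1 fell, among them the lysozyme gene Lyz2 (0.93 ± 0.13) and the lysosomal membrane gene Cd68 (1.74 ± 0.33), which rose, with levels of 9.29 to 9.69 and 9.68 to 9.87. The 1 that fell was the scavenger receptor gene Marco (-0.80 ± 0.20), which lost its call without not-injected replicate 1 (-0.66), 2 (-0.88) or 3 (-0.85) or injected replicate 1 (-0.71) or 3 (-0.66). The Kupffer cell gene Clec4f (-0.11 ± 0.13) and the macrophage gene Adgre1 (0.09 ± 0.14) did not pass. Of 10 stellate cell markers 1 fell and 0 rose (8.48 to 8.52 and 8.40 to 8.95). The 1 that fell, Reln (-0.38 ± 0.11), lost its call without not-injected replicate 2 (-0.37) or 3 (-0.33) or injected replicate 2 (-0.31) or 3 (-0.33). Of 9 lymphocyte markers 1 rose, Ptprc (0.71 ± 0.14), and 0 fell (6.31 to 6.47 and 6.42 to 6.57). Of 7 cholangiocyte markers none rose or fell by limma (5.68 to 5.72 and 5.61 to 5.88), and the smallest adjusted p was that of Epcam (0.056), which passed without injected replicate 2 (0.80). Leaving out that array also raised the count of all genes called. The array values have no true zero, and the part of these cells in the differences of the Cyp2 genes was not tested.

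The other P450 families were measured by 32 genes. Of these 32 P450 genes outside family 2, 8 fell and 6 rose, with a median difference of -0.03. In family 2 the median was -0.42, with 14 of 31 genes lower and 3 higher, and the difference between the families was not tested.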

How the data were processed

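Per the labels, total RNA of 6 livers was made into biotin-labelled cRNA and read on Affymetrix arrays. The authors deposited 1 log2 value per probe set, made with RMA in the affy package per the submitters' processing notes (version not given in the sources used here). RMA equalises arrays, so a shift of all transcripts would not be seen, and no detection calls came with the values. Of 22690 probe sets 64 were controls, 20380 carried 1 symbol, 691 several and 1555 none. A gene took its probe set with the highest mean. The RefSeq table held 12369 of the genes by identifier, and 0 symbols changed.

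All genes were fitted with limma 3.58.1 (R 4.3.3; lmFit, eBayes), 3 arrays against 3, without covariates or a filter, and p-values were adjusted by Benjamini-Hochberg over 12393 genes. Errors are standard errors. The number of arrays limits the precision. Labels call the arrays biological replicates. The scripts were tested on simulated data. Python 3.11.15, pandas 2.3.3 and matplotlib 3.10.9 made tables and plots.

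Members, the 18 gene lists and the tests were chosen with earlier results of these data known. The rule named every called member, and gave array values for called members past 1 on the log2 scale and for the member of each subfamily that differed most. Array values of further members were added after the values were seen. Of the other lists, up to 3 called genes could be named, and those that a result turns on were. The level of 12 used to sort genes was chosen after the values were seen. Alternatives were a replicate block, other variance estimates, probe set rules, normalisations, array weights and leaving out each array.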

Additional observations from a re-analysis of the deposited data

How the results depend on the processing

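Of the 14 members that fell, 7 were called in all 16 alternatives (Cyp2a12, Cyp2c23, Cyp2c70, Cyp2d10, Cyp2d13, Cyp2d26 and Cyp2f2), as were Cyp2j6 and Cyp2j9 among those that rose. Without variance moderation 8 members were called lower, 33 genes of the context lists were called instead of 67 and 1881 genes in all instead of 3486. Cyp2s1 did not pass there (limma fit without moderation, adjusted p = 0.0606). Over single probe sets 5302 of 20380 were called, where the main fit called 3486 of 12393 genes. With 1 array left out, 9 to 17 members were called lower and 3 to 4 higher, and 1973 to 4378 of all genes were called. Leaving out not-injected replicate 2 gave 1973 called genes, leaving out the third not-injected array gave 2032, and leaving out injected replicate 1 gave 2103. Leaving out injected replicate 2 gave 4378. Array weights, lowest for that array (0.396), gave 4707, with 17 members called lower and 4 higher. Signs turned in genes that never passed: Cyp2b13 with array weights (-0.017) and without not-injected replicate 1 (-0.026), Cyp2c38 without injected replicate 3 (-0.032), Cyp2e1 without injected replicate 1 (0.026), and Cyp2g1 (-0.06) and Tfeb (-0.051) without injected replicate 2. With 1 array left out these differences ran from -0.026 to 0.18 for Cyp2b13, -0.032 to 0.35 for Cyp2c38, -0.13 to 0.026 for Cyp2e1, -0.06 to 0.23 for Cyp2g1, -0.051 to 0.11 for Tfeb, -0.036 to 0.23 for Adgre1 and -0.15 to 0.046 for Nr1i2. Nr1i2 was also above 0 with array weights (0.038), without not-injected replicate 1 (0.046) and without injected replicate 2 (0.042) or 3 (0.01), as Adgre1 was below 0 without injected replicate 2 (-0.036). The labels do not say whether a replicate number is shared between groups. Deviations of same-numbered arrays correlated at 0.136, 0.0567 and 0.0113, and those of other pairs at -0.163 to 0.0767. Not every array correlated best with its own number, and 3 arrays per group are too few to decide on a pairing. With the replicate number as a block 3348 genes were called, 15 members lower and 4 higher, and Cyp2b10 (adjusted p = 0.0155) and Cyp2c50 (0.0429) passed. No rescaling moved the median of all genes by 0.1 or more.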
